A study of Mus musculus with 12 samples.

Results

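The comparison described here is the effect of age in the hippocampus of male AppNL-G-F mice with Trem2 intact. It sets 3 libraries from mice of 9 months (mouse labels AK4275, AK4276 and AK4277, called 9-month libraries 1 to 3) against 3 libraries from mice of 3 months (AK129, AK130 and AK132, called 3-month libraries 1 to 3), and covers every gene that could be tested. These 6 libraries are part of 12 in the series. The other 6 come from male AppNL-G-F mice that also carry a Trem2 knockout, 3 at 3 months and 3 at 9 months, and they are used below only to ask where the age change differs without Trem2. All 12 mice carry the App knock-in, so the age groups differ in both age and time of exposure to amyloid, which cannot be told apart here. Amyloid itself was not measured in these files, and each library carries its own mouse label.

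AppNL-G-F mice carry a humanised amyloid-beta sequence with the Swedish, Beyreuther/Iberian and Arctic mutations in the mouse App gene, expressed from the gene's own promoter rather than a transgene, and deposit amyloid plaques with age. Microglia, the resident macrophages of the brain, gather around such plaques. TREM2 is a lipid-sensing receptor of microglia that signals through the adaptor TYROBP, SYK and phospholipase C gamma 2, and it is known to be needed for the full plaque-associated state, in which genes of phagocytosis, lysosomal digestion and lipid handling are high. Astrocytes respond to plaques with raised Gfap and complement C4b, and oligodendrocytes with C4b, Serpina3n and class I molecules.

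The 6 libraries held between 15360564 and 24594655 counts each. Levels are given as CPM, counts scaled to library size, and a gene with 0 counts in a library could be as high as 3 counts, or 0.122 to 0.195 CPM depending on the library (counting error only). Of 56980 gene identifiers, 19152 passed the filter on low counts. In a principal component analysis of the 6 libraries the leading component held 36.24% of the variance and put all 3-month libraries on one side and all 9-month libraries on the other, and the next held 25.26% and did not separate the ages. Neighbouring tissue differed between libraries within each age. The mean log2 CPM of 21 markers of choroid plexus and ependyma was 1.50, 4.38 and 2.78 in 3-month libraries 1 to 3 and 4.12, 0.97 and 4.16 in 9-month libraries 1 to 3, so that 3-month library 1 and 9-month library 2 were low. The labels give no batch or preparation date, and App, the targeted gene, was measured at 1202 ± 12.5 CPM at 3 months and 1215 ± 15.4 CPM at 9 months (mean ± SD, n = 3).

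In all, 1276 genes changed between 3 and 9 months, which is 6.66% of those tested (edgeR quasi-likelihood F-test, adjusted p under 0.05). Of these, 757 were higher at 9 months (3.95% of tested genes) and 519 were lower (2.71%). The sizes were unequal. The higher genes had a median log2 change of 0.77 and 295 of them passed 2-fold, whereas the lower genes had a median of -0.40 and 19 passed 2-fold. Over all tested genes the median log2 change was -0.00113. The 3 libraries of one age did not overlap those of the other for 1268 of the 1276 called genes, against 4349 of all tested genes (22.7%). Leaving out 1 library at a time gave 788 to 1079 calls, with the lowest counts without 3-month library 3 (811), without 9-month library 1 (794) and without 9-month library 2 (788). A call given below as lost in some of 6 fits was lost in fits that each leave out 1 of these 6 libraries. Without both libraries low in choroid plexus markers there were 638 calls, 485 higher and 153 lower.

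**Figure D1:**
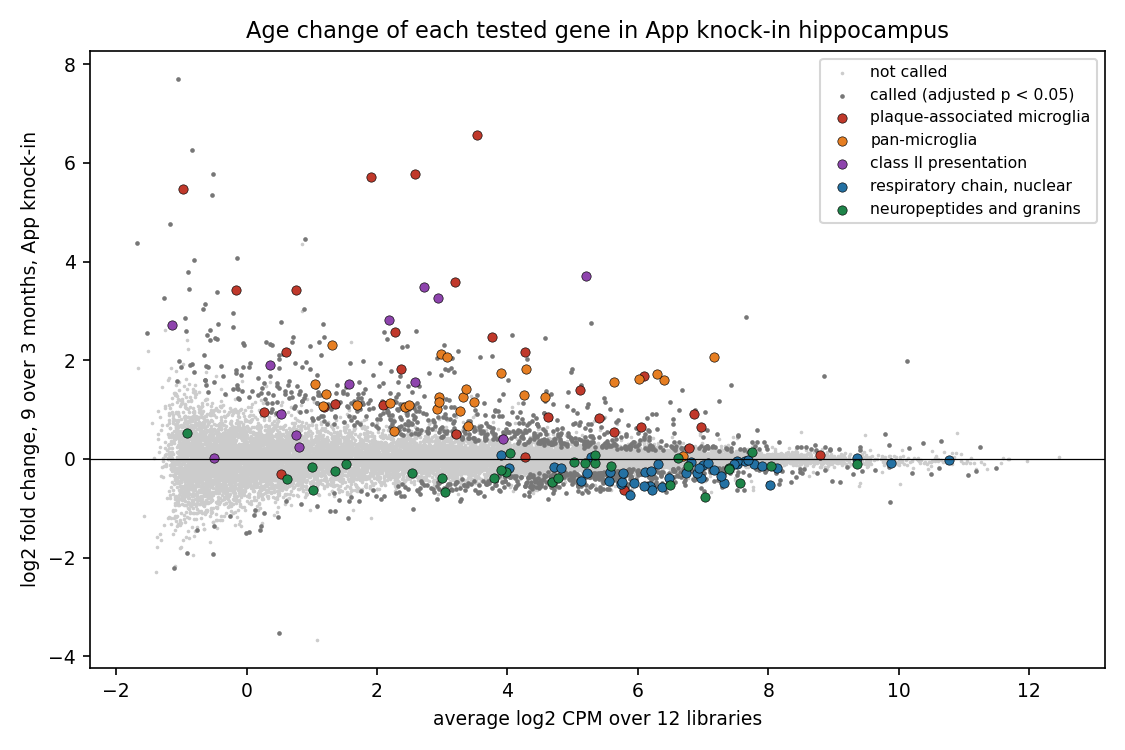
Log2 fold change at 9 over 3 months in App knock-in hippocampus (vertical axis) against average log2 CPM over 12 libraries (horizontal axis) for each of the 19152 tested genes; dark grey points passed an adjusted p of 0.05 and members of 5 gene lists are coloured whether or not they passed. Microglial and class II genes spread upward, with Cst7 at 6.55, while nuclear respiratory chain and neuropeptide genes lie below the zero line in larger part, with Cck at -0.77.

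Genes of the plaque-associated microglial state were among those that rose most. Cst7, which encodes the cathepsin inhibitor cystatin F, was measured at 0.856, 0.343 and 0.0976 CPM in the 3-month libraries and at 43.7, 41.8 and 45.9 CPM in the 9-month libraries, a log2 change of 6.55 ± 0.31 (SE, adjusted p = 1.31e-08). That change was 7.65 without 3-month library 1, the highest of the 3-month libraries, and 6.09 without 3-month library 3, and Cst7 was called in each case. Clec7a, the beta-glucan receptor dectin-1, went from 0.408, 0.285 and 0.439 CPM to 19.8, 22.1 and 21.6 CPM, a log2 change of 5.76 ± 0.28 (adjusted p = 7.95e-11). Itgax, the integrin CD11c, went from 0.367, 0 and 0.39 CPM to 13.3, 14.8 and 15.2 CPM, a log2 change of 5.71 ± 0.34 (adjusted p = 1.47e-09). These 3 genes had few reads at 3 months and were well above the level of 3 counts in every library at 9 months. In a bulk sample, more cells of a type and more RNA per cell cannot be told apart, and this holds for every microglial gene below.

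Of the 30 plaque-associated genes listed, all were tested, 23 were higher, 1 was lower and the median log2 change was 1.10. The chemokine Ccl6 rose by 3.58 ± 0.14 on the log2 scale, from 2.17 ± 0.26 to 26.1 ± 1.51 CPM. Gpnmb, a lysosomal membrane glycoprotein of lipid-laden macrophages, rose from 4.97, 4 and 6 CPM to 26.7, 31.1 and 25.1 CPM, and Cd68, a lysosomal membrane protein of phagocytes, rose from 9.7, 7.82 and 9.27 CPM to 40.3, 42.6 and 38.2 CPM. The checkpoint receptor Lag3 (log2 change 2.58), the inhibitory receptor Lilrb4a (3.42), the actin-capping protein Capg (1.82), cathepsin Z (Ctsz, 1.67), the tetraspanin Cd9 (0.92), the growth factor Csf1 (0.82), the phosphatidylserine-binding receptor Axl (0.64), lipoprotein lipase (Lpl, 0.54) and Igf1 (0.51) were also higher, with the Igf1 call lost in 3 of 6 fits. Atp6v0d2, a subunit of the lysosomal proton pump, had 0.0815, 0 and 0 CPM at 3 months and 1.53, 1.72 and 1.84 CPM at 9 months.

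The list did not move as a block. Fabp5, a fatty acid-binding protein that neurons and other glia also express, was lower, with 60.7, 65.5 and 68.2 CPM at 3 months and 40.1, 42.2 and 42.8 CPM at 9 months (log2 change -0.63 ± 0.13, adjusted p = 0.00931), a call that was lost without 9-month library 1. Osteopontin (Spp1) rose from 22.1 ± 3.53 to 58.5 ± 10.7 CPM (adjusted p = 0.0287), and this call was lost when any 1 of the 6 libraries was left out. Galectin-3 (Lgals3) had a log2 change of 1.11 with an adjusted p of 0.0678, and Cd63, Cadm1 and the scavenger receptor Colec12 had values of 0.21, 0.08 and 0.03 and did not pass the test.

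**Figure D2:**
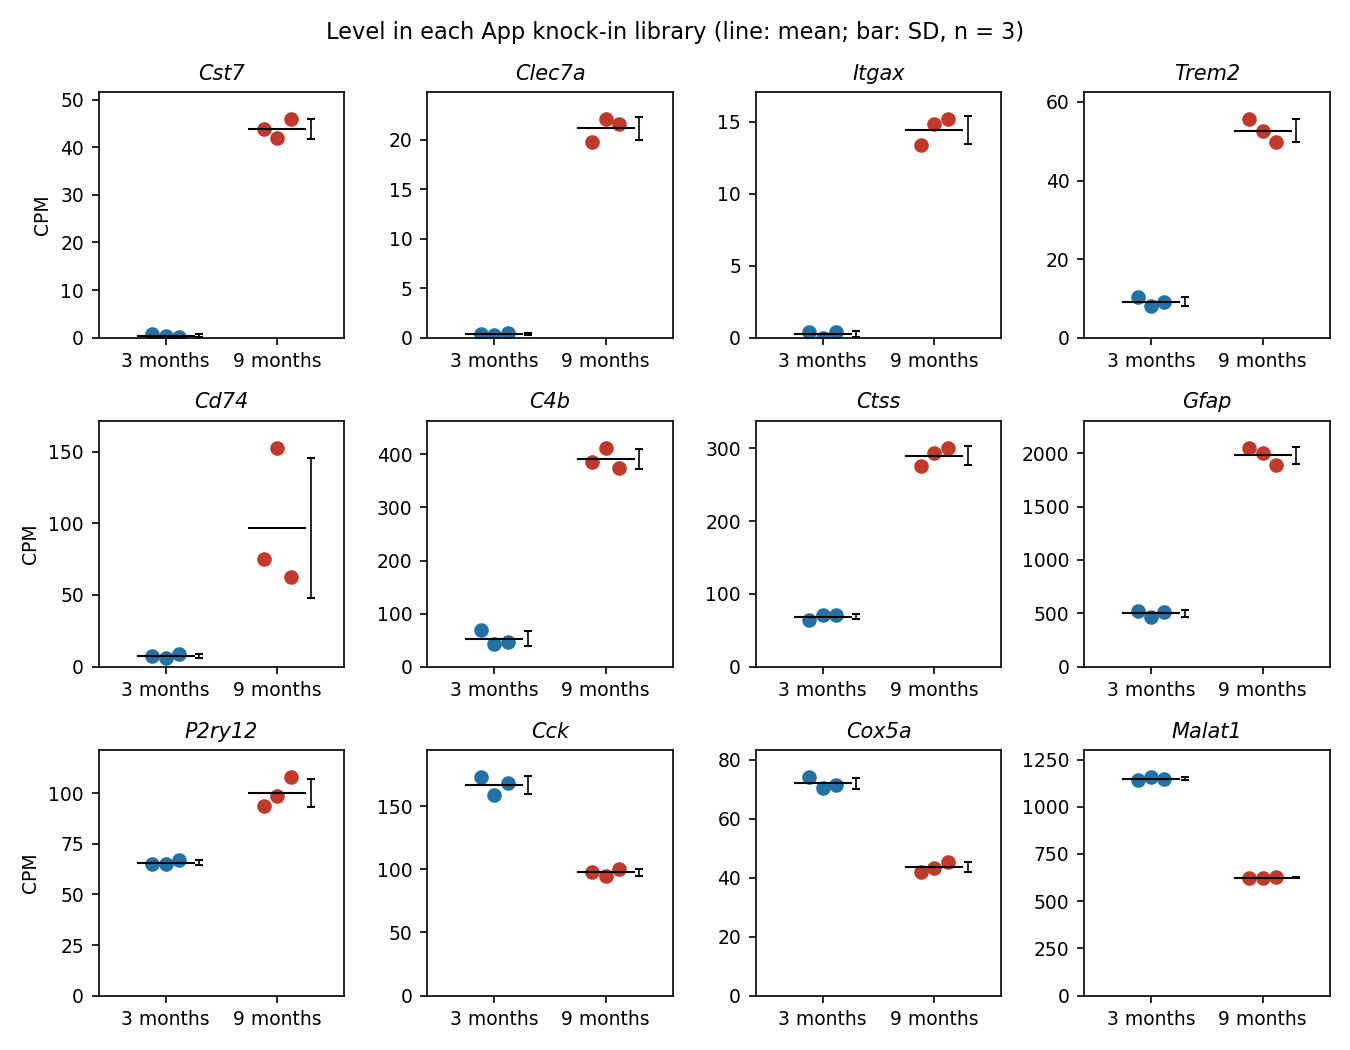
CPM in each of the 6 App knock-in libraries for 12 genes, with 1 point per library, the mean as a line and the SD (n = 3) as a bar; each vertical axis starts at 0. The ages do not overlap for any of the 12 genes, and 9-month library 2 stands above the other 9-month libraries for Cd74 at 152.2 CPM.

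Trem2 itself rose. It was measured at 10.4, 8.05 and 9.17 CPM at 3 months and at 55.6, 52.6 and 49.8 CPM at 9 months, a log2 change of 2.51 ± 0.10 (adjusted p = 2.79e-13). The knockout libraries, which check the labels, held 1.98 ± 0.165 CPM at 3 months and 3.74 ± 0.11 CPM at 9 months (mean ± SD, n = 3), so every library labelled as knockout was below every library with Trem2. Of 20 genes listed for TREM2 signalling, 19 were tested, 12 were higher and none was lower, with a median log2 change of 0.86. The adaptor Tyrobp rose by 2.09, from 7.5, 6.51 and 7.12 CPM to 27.9, 30.6 and 31.9 CPM.

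Downstream of the receptor, the rise reached kinases, adaptors and phosphatases, with smaller changes. The kinases Syk and Lyn rose by 0.85 and 0.74, the adaptors Vav1, Pik3ap1, Dok1 and Blnk by 1.27, 1.21, 1.08 and 0.86, the lipid kinase Pik3cg by 1.04 and phospholipase C gamma 2 (Plcg2) by 1.05 on the log2 scale. The phosphatases that oppose this signalling, Ptpn6 (SHP-1) and Inpp5d (SHIP-1), rose by 1.75 and 1.37. Among the members that did not pass the test were Grb2 (log2 change 0.04), Vav3 (0.04), Bcl10 (0.15) and Prkcd (0.33). Leaving out any 1 library left 12 members called higher each time.

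Markers of microglia as a cell type rose along with the plaque-associated genes. Of 29 pan-microglial genes, 28 were higher and the median log2 change was 1.26. Ctss, the microglial cysteine protease cathepsin S, went from 64.8, 70.3 and 71.6 CPM to 275.8, 294.3 and 300.1 CPM, a log2 change of 2.07 ± 0.07. The common leukocyte antigen Ptprc rose by 2.13, the NADPH oxidase subunit Cybb by 2.30, the transcription factors Irf8, Runx1, Irf5, Spi1 (PU.1) and Ikzf1 by 1.73, 1.53, 1.25, 1.13 and 1.06, and Aif1, which encodes the widely used marker IBA1, by 0.57. The Aif1 call was lost in 4 of 6 fits (without 3-month library 2 or 3 or 9-month library 1 or 2). Coro1a, which neurons and lymphocytes also express, had a log2 change of 0.06 and did not pass the test.

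Many homeostatic microglial genes, which are known to fall within individual plaque-associated microglia, were also higher in the tissue. Of 22 listed, 16 were higher and none was lower, with a median log2 change of 0.72. The purinergic receptor P2ry12 went from 64.8, 64.8 and 67 CPM to 93.8, 98.5 and 107.8 CPM (log2 change 0.61 ± 0.07), Tmem119 from 35.5 ± 1.28 to 48.9 ± 0.849 CPM (0.46) and the fractalkine receptor Cx3cr1 from 33.9 ± 0.745 to 55.5 ± 1.5 CPM (0.71). The growth factor receptor Csf1r rose by 1.17 and the transcription factor Sall1 by 0.67. The changes of P2ry12 and Tmem119 were thus smaller than the pan-microglial median of 1.26, a difference that was not tested. The ligand side moved less: Csf1 rose by 0.82, whereas Il34 had a log2 change of -0.11 and did not pass the test.

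**Figure D3:**
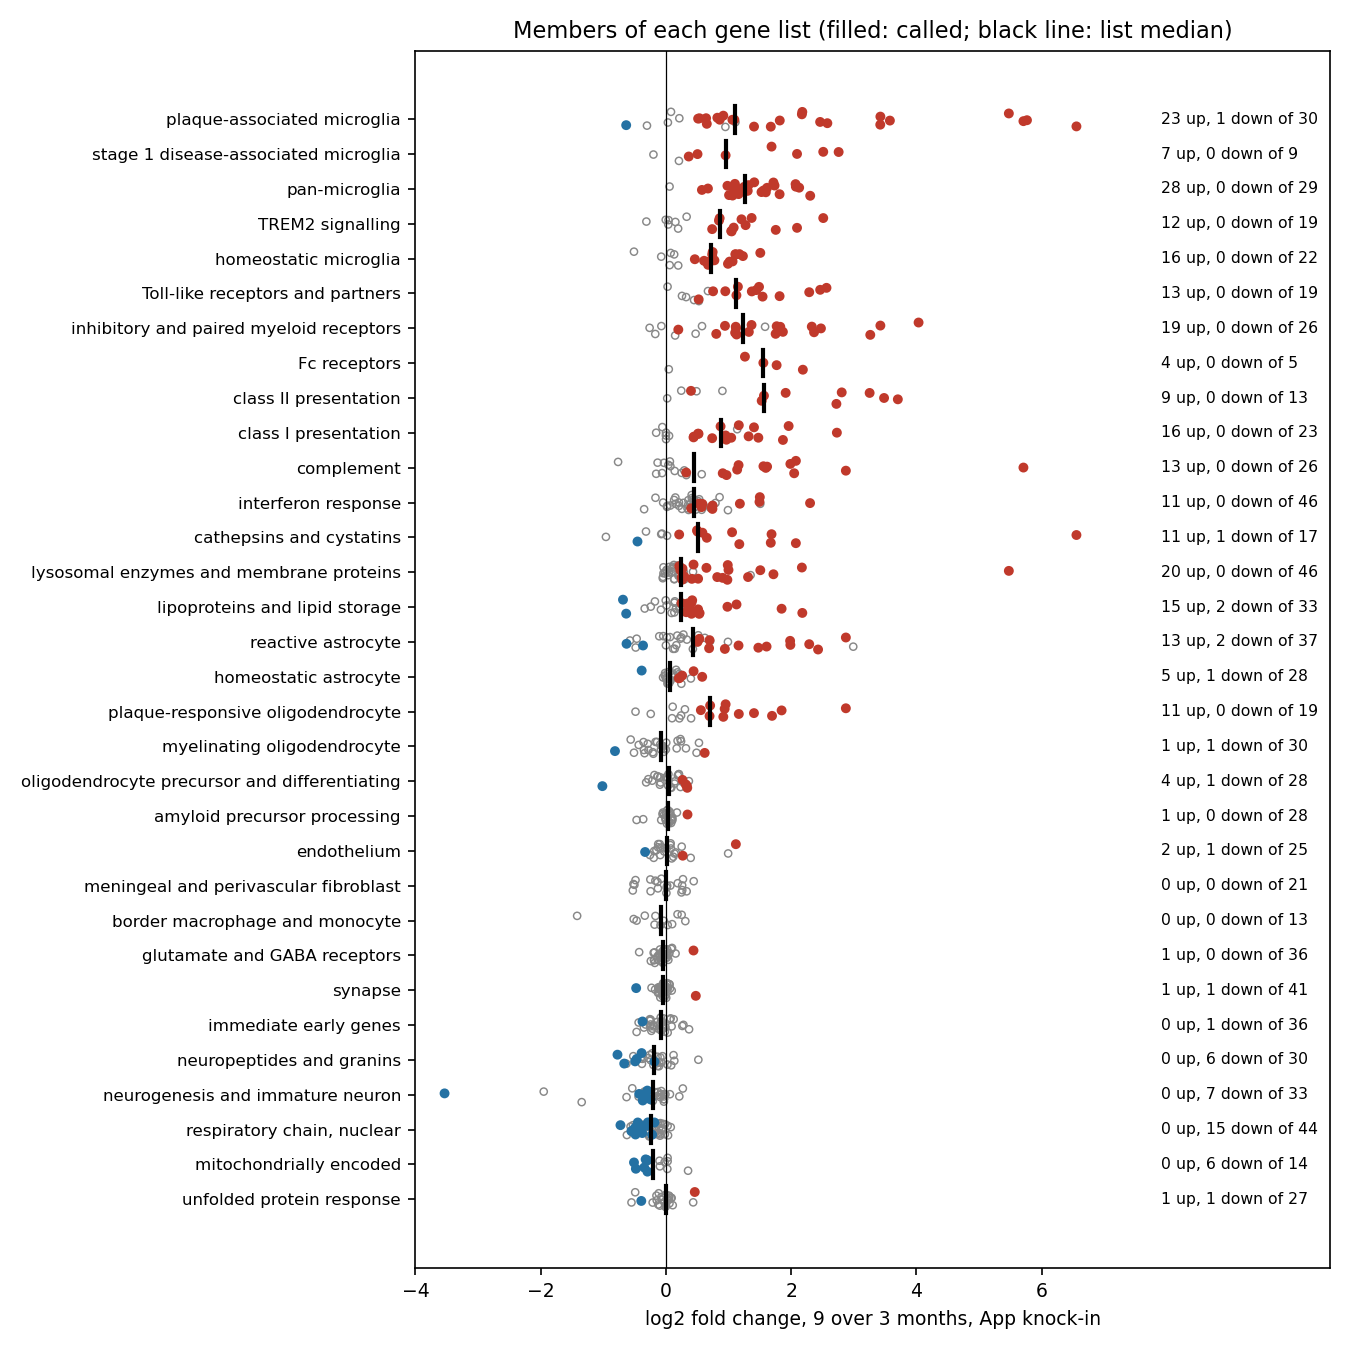
Log2 fold change at 9 over 3 months for the tested members of 32 gene lists, with points spread vertically only for legibility; filled red points are genes called higher, filled blue points genes called lower, open points genes not called, and the black line is the list median. The text at the right gives the number called in each direction of the number tested; microglial lists lie at the top to the right of 0, with 28 of 29 pan-microglial genes called higher, and the nuclear respiratory chain lies to the left, with 15 of 44 called lower.

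Complement genes rose at the initiating end of the classical pathway and among its receptors. The C1q chains C1qa, C1qb and C1qc rose by 1.56, 1.59 and 1.62, each with an SE of at most 0.08. C4b, the component that C1 cleaves, was measured at 69.7, 42.7 and 46.8 CPM at 3 months and 386.2, 411.5 and 375.1 CPM at 9 months, a log2 change of 2.87 ± 0.18. C3 was scarce and more variable, with 1.96, 0.571 and 1.12 CPM against 3.01, 6.49 and 5.64 CPM (log2 change 1.99 ± 0.39, adjusted p = 0.0082). The receptors C3ar1, C5ar1 and C5ar2 rose by 2.05, 0.97 and 1.14, the complement receptor 3 subunits Itgb2 and Itgam by 2.08 and 1.16. The C5ar2 call was lost in 5 of 6 fits, all but that without 3-month library 3, and with DESeq2, and the C3 call in 1 of 6. In all, 13 of 26 tested members were higher and none was lower. The neuronal complement inhibitors Csmd1 (log2 change -0.13) and Csmd2 (0.06) and the C1 inhibitor Serping1 (0.33) did not pass the test.

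Antigen presentation by class II molecules rose with a wide spread between the 9-month libraries. The invariant chain Cd74 was measured at 7.42, 5.94 and 8.83 CPM at 3 months and 75.2, 152.2 and 62.6 CPM at 9 months, a log2 change of 3.70 ± 0.42 (adjusted p = 0.00115). H2-Ab1 went from 1.88, 1.83 and 1.8 CPM to 13.1, 28.2 and 11.2 CPM, and H2-Aa from 1.43, 1.03 and 1.76 CPM to 13.4, 23.9 and 10.2 CPM. The ages did not overlap, and 9-month library 2 was highest for all 3 genes. Without it, the log2 changes were 3.21, 2.72 and 3.06, and all 3 stayed past the threshold. In all, 9 of 13 class II genes were higher, including the costimulatory molecule Cd86 (1.56), whereas the class II transactivator Ciita (0.24), Cd80 (0.90) and Cd40 (0.02) did not pass the test.

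Of 23 class I presentation genes, 16 were higher and none was lower, with a median log2 change of 0.87, and 10 were higher without both libraries low in choroid plexus markers. The heavy chains H2-D1 and H2-K1 rose by 1.41 and 1.16, beta-2-microglobulin (B2m) by 0.95 from 92.7 ± 1.02 to 179 ± 22.7 CPM, the immunoproteasome subunits Psmb8 and Psmb9 by 1.48 and 1.32, the peptide transporters Tap1 and Tap2 by 0.96 and 0.74, and the class I transactivator Nlrc5 by 1.87. The general chaperones Calr, Canx and Pdia3 had log2 changes between -0.00 and 0.05 and did not pass the test. Counts of single class I genes are uncertain, since their sequences are alike and no source used here says how reads matching more than 1 gene were counted.

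The interferon response rose in part. Of 46 tested interferon-induced genes, 11 were higher and none was lower, and 43 had a positive value, with a median of 0.45. Ifi204, a DNA sensor, rose from 0.527 ± 0.248 to 2.57 ± 0.505 CPM (log2 change 2.30), Lgals3bp from 18.7 ± 4.38 to 52.3 ± 7.84 CPM (1.49), the GTPase Irgm1 by 0.73 and the transcription factors Irf1 and Irf9 by 0.57 and 0.53. Ifit3, a widely used reporter of type I interferon, had 14, 12.7 and 19.9 CPM at 3 months and 22.5, 29.8 and 18.6 CPM at 9 months, and the ages overlapped (adjusted p = 0.443). This count rests strongly on single libraries: it was 5 without 9-month library 2, 7 without 3-month library 1 or 9-month library 1, up to 15 when another library was left out, and 3 without both libraries low in choroid plexus markers. The list's mean log2 CPM ran from 2.13 to 2.36 at 3 months and from 2.43 to 2.99 at 9 months.

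The bases before the start sites of genes were searched for the letters of 4 motifs on both strands, over 250 bases before each start. These were the core of a binding motif of PU.1 (GAGGAAGT), the myeloid lineage factor, the interferon-stimulated response element (GAAANNGAA), AP-1 (TGANTCA) and the lysosomal E-box (TCACGTGA). The windows come from RefSeq on GRCm38.p6, while the counts were made on GRCm39, so coordinates below hold for the older build only, and 12549 tested genes had a window. The PU.1 letters were in 2.79% of all genes with a window, 2.64% of tested genes, 6.77% of genes called higher (40 of 591) and 2.52% of genes called lower. The interferon element's letters were in 8.18% of all genes, 7.38% of tested genes, 11.8% of genes called higher, 8.06% of genes called lower and 54.3% of the tested interferon-induced genes (19 of 35). The AP-1 letters were in 7.82% of all genes, 5.57% of tested genes, 6.94% of genes called higher and 5.79% of genes called lower, and the lysosomal E-box in 0.907%, 1.56%, 1.52% and 1.26%. Of the tested homeostatic microglial genes, 15 had a window and none held the PU.1, interferon or AP-1 letters. Motifs can overlap one another, and a match is a description of the letters and not evidence of binding.

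The plaque-associated, pan-microglial and interferon lists have 63 called members, some of them without a window. Of these 63, 12 had the PU.1 or the interferon letters in a window. Those of 5 genes are shown 5′ to 3′ on the gene's strand to place the motif letters, in capitals, against the start site, which follows the last base. Cybb (minus strand, chrX:9469325-9469574) has the interferon letters at 3 places, which begin 167 and 123 bases before the start on the opposite strand and 29 bases before it on the gene's own strand. Ctss (plus strand, chr3:95526536-95526785) has them 21 bases before the start, and Ifi207 (minus strand, chr1:173741810-173742059), a member of the same interferon-inducible family as Ifi204, 41 bases before it. C1qc (minus strand, chr4:136892915-136893164) has the PU.1 letters, on the opposite strand, 195 bases before the start, and Spp1 (plus strand, chr5:104434861-104435110) has the PU.1 letters 113 bases and the interferon letters, on the opposite strand, 156 bases before it.
Cybb: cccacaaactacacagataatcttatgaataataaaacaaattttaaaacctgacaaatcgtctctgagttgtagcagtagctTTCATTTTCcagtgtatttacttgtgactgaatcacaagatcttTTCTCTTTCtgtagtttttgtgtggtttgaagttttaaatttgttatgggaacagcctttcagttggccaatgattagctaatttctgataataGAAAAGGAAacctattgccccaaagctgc
Ctss: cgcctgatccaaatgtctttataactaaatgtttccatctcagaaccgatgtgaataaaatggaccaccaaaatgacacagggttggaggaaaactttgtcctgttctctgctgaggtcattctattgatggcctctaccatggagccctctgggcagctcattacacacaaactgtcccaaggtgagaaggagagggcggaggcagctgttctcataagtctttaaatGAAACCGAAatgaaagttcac
C1qc: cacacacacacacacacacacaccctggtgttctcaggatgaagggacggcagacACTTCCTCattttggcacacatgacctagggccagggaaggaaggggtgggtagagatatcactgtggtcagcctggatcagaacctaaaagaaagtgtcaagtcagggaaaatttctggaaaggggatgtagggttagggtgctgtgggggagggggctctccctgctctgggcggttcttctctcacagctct
Ifi207: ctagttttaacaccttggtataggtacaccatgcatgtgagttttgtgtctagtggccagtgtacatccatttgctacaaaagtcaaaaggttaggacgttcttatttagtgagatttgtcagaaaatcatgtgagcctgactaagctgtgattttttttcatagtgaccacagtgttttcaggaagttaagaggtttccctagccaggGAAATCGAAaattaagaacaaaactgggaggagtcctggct
Spp1: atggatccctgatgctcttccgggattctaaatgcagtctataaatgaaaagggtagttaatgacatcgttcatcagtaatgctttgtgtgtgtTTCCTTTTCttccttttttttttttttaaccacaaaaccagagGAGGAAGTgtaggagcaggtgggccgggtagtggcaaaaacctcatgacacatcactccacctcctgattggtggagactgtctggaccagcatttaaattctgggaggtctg

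The log2 changes of these 5 genes were 2.30 for Cybb, 2.07 for Ctss, 1.62 for C1qc, 1.50 for Ifi207 and 1.41 for Spp1, and the Ifi207 call was lost in 4 of 6 fits. Of the 18 tested plaque-associated genes with a window, 1 held the PU.1 letters, 2 the interferon letters, 3 the AP-1 letters and none the lysosomal E-box. Of 24 pan-microglial genes, 2 held the PU.1 letters, 4 the interferon letters and 1 the AP-1 letters, and of 36 lysosomal genes 2 held the E-box.

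Receptors that microglia use to sense and restrain inflammation were higher in most of their families. Of 19 Toll-like receptors and partners, 13 were higher, led by Tlr2 (from 1.84 ± 0.58 to 10.7 ± 1.23 CPM, log2 change 2.56), the lipopolysaccharide co-receptors Cd180 (2.46) and Cd14 (2.29), and the endosomal receptors Tlr13 (1.49) and Tlr7 (1.15) with their chaperone Unc93b1 (1.13). The adaptors Myd88 (0.26) and Ticam1 (0.03) did not pass the test, and 8 genes of this list were higher without both libraries low in choroid plexus markers. Of 5 tested Fc receptor genes, 4 were higher, and the inhibitory Fcgr2b (2.19) and the activating Fcgr3 (1.77) both rose. Fcgrt, the neonatal Fc receptor that recycles immunoglobulin, had a log2 change of 0.05 and did not pass.

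Inhibitory and paired myeloid receptors gave 19 higher and none lower of 26, with a median log2 change of 1.23. Siglecf, Cd48, Slamf9, Cd84 and Havcr2 (TIM-3) rose by 2.48, 2.37, 2.33, 1.83 and 1.75, Vsir (VISTA) and Lair1 by 1.37 and 1.32, and Cd33 by 0.80. The Siglecf value ran from 1.88 to 3.44 over the alternatives, with 3.44 without 3-month library 3. Cd22, a sialic acid-binding lectin, had 0.163, 0.0571 and 0 CPM at 3 months and 1.63, 1.72 and 0.787 CPM at 9 months. The partner ligands on neurons, Cd47 (log2 change -0.07) and Cd200 (-0.17), did not pass the test, while Cd200r1, the receptor of Cd200, rose by 1.87 at a low level of 1 ± 0.34 CPM at 9 months, a call lost in 4 of 6 fits.

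Among chemokines, Ccl3 and Ccl4, which attract monocytes and microglia, rose from 0.158 ± 0.0544 to 2.79 ± 0.184 CPM and from 0.272 ± 0.024 to 1.57 ± 0.333 CPM, and Cxcl16 rose by 1.41. The neuronal fractalkine gene Cx3cl1 was lower, at 888.2, 857 and 899.2 CPM against 748.2, 763.6 and 755.4 CPM (log2 change -0.22 ± 0.05, adjusted p = 0.0154), a call lost without 3-month library 3 or 9-month library 1. Of 33 tested cytokine, growth factor and inflammasome genes, 18 were higher, among them Il1a (1.43), Tgfb1 (1.09), its receptors Tgfbr2 (0.99) and Tgfbr1 (0.75), Tnfrsf1b (1.02), Il33 (0.71) and Pycard, the inflammasome adaptor (0.81), and 11 were higher without both libraries low in choroid plexus markers. The Il1a value ran from 1.04 to 1.89 over the alternatives and its call was lost in 5 of 6 fits, all but that without 3-month library 1, and the Pycard call in 3 of 6. Il1b, Tnf, Il6, Il1rn, Il12b and Il10 were below the filter and were not tested.

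Genes of lysosomal digestion were higher in part. Cathepsin D (Ctsd) went from 246.2, 303.4 and 259.5 CPM to 868.9, 818 and 915.8 CPM, a log2 change of 1.69 ± 0.13. Of 17 cathepsins and cystatins, 11 were higher, including cathepsins H (1.17), C (1.06), L (0.65), A (0.58) and B (0.50) and legumain (Lgmn, 0.50), and the cytosolic inhibitor Cstb was lower (-0.45 ± 0.12, adjusted p = 0.0232). That call was lost without any of 4 libraries (3-month libraries 1 and 2, 9-month libraries 1 and 2) and with a length offset. Cstb has a transcript of 603 bases, a length class discussed below. Of 46 lysosomal enzymes and membrane proteins, 20 were higher and none was lower, with a median log2 change of 0.24. Beside Cd68 and Atp6v0d2, given above, they included Gusb (1.31), progranulin (Grn, 0.99), Naglu (0.98), Man2b1 (0.91), Hexa (0.82) and Npc2 (0.51), while Lamp1, a membrane protein of lysosomes in all cells, rose by 0.25 and Psap and the proton pump subunits Atp6v1a and Atp6v1b2 did not pass the test. Of 24 tested phagocytosis genes, 10 were higher and none was lower, with a median of 0.39. They included Dock2, an activator of Rac (1.80), the oxidase subunits Cybb (2.30) and Ncf4 (1.35), Itgb5 (1.15), the receptor Mertk (0.60) and the bridging protein Pros1 (0.84), with Gas6 (0.25), Mfge8 (0.25) and Tyro3 (-0.11) not called.

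Lipid genes divided by function. Apoe, the main lipoprotein of the brain, was 1429, 1463 and 1418 CPM at 3 months and 1949, 1697 and 1901 CPM at 9 months (log2 change 0.36 ± 0.05), and clusterin (Clu) rose by 0.32. Cholesterol 25-hydroxylase (Ch25h) rose by 2.18, the lipid droplet proteins Plin4 and Plin2 by 1.85 and 0.42, and the exporter Abca1 by 0.41, with the Plin2 and Abca1 calls each lost in 5 of 6 fits (Plin2 kept it without 3-month library 2 and Abca1 without 9-month library 3). In all, 15 of 33 members were higher and 2 were lower, the latter being the fatty acid-binding proteins Fabp5 and Fabp3 (-0.69). Sterol and fatty acid synthesis gave 4 higher of 32 (Srebf1, Stard4, Acat2 and Fdft1, 0.22 to 0.47), a count that was 0 without 9-month library 1 and 1 without 3-month library 2, 3-month library 3 or 9-month library 3.

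Of 28 tested genes that process the amyloid precursor protein, 1 was higher, Adam17, an alpha-secretase (log2 change 0.34 ± 0.08, adjusted p = 0.00779), which was not called without 9-month library 2, and the median was 0.03. App had a log2 change of 0.02 ± 0.05. Of 45 tested mouse orthologs of genes at Alzheimer's disease risk loci, 19 were higher and none was lower, and most of the higher ones are also in a microglial, lysosomal or lipid list above. Those not yet named include Ms4a6d (1.14), Abi3 (1.32), Rin3 (0.95), Icam1 (1.12) and Picalm (0.22, a call lost in 5 of 6 fits), and the neuronal or widely expressed Bin1, Ptk2b and Apbb1 did not pass the test.

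Reactive astrocyte genes were higher in part. Gfap, the intermediate filament that defines reactive astrocytes, was measured at 524.9, 464.2 and 514.6 CPM at 3 months and 2045, 2006 and 1893 CPM at 9 months, a log2 change of 1.98 ± 0.05 (adjusted p = 1.11e-15). Of 37 tested members, 13 were higher and 2 were lower. The oncostatin M receptor Osmr rose by 1.61, Aspg by 2.43, Ggta1 by 1.16, Cd44 by 0.94, the protease inhibitor Serpina3n by 0.70, Vim by 0.69 and Stat3 by 0.53, and Tnc and Id3 were lower (-0.63 and -0.37). Neither of the lower calls held without 9-month library 2, and 1 of them held without 9-month library 1 or without any of the 3-month libraries. Fkbp5, Cp, Amigo2 and Mt1 did not pass the test.

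Most genes of resting astrocyte function did not pass the test, with a median log2 change of 0.07 over 28 members. Those called higher were the water channel Aqp4 (from 188.5, 186.8 and 194 CPM to 285.1, 278.8 and 286.5 CPM, log2 change 0.58), S100b (0.44), Mlc1 (0.26), Aldoc (0.22) and Atp1b2 (0.20), and Cldn10 was lower (-0.39). The calls of Aldoc and Atp1b2 were lost in 5 and 3 of 6 fits, and the count of 5 higher was 3 without 3-month library 2, 3-month library 3 or 9-month library 2. The glutamate transporters Slc1a2 and Slc1a3 did not pass the test.

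Genes known to respond to plaques in oligodendrocytes were higher in part, and myelin genes were called at about the share of all tested genes (6.66%). Of 19 plaque-responsive genes, of which 14 are also in another list, 11 were higher, among them Klk6 (1.69), Anxa3 (0.94), Cd9 (0.92), Il33 (0.71) and Anxa2 (0.56) beside C4b, Serpina3n and the class I genes, several of which astrocytes and microglia also express, so that the cells behind these changes cannot be told apart in bulk tissue. Of 30 myelin genes, Hapln2, a link protein of the nodes of Ranvier, was higher (0.62 ± 0.10) and Opalin was lower (-0.81 ± 0.16, from 27.7 ± 6.84 to 15.8 ± 2.09 CPM), and Mbp and Mobp did not pass the test. Without 3-month library 3, 5 myelin genes were lower. DESeq2 called 5 of the 30 and limma-voom 2, and 12 had an unadjusted p under 0.05 by edgeR. The non-coding RNA 9630013A20Rik, which marks newly formed oligodendrocytes, fell by 1.02 on the log2 scale, from 7.67 ± 0.71 to 3.81 ± 0.544 CPM. The precursor genes Pdgfra and Ptprz1 rose by 0.32 and 0.34, the former with a call lost in 4 of 6 fits. Of the 4 genes of the precursor and differentiating list called higher, 1 or 2 were called when 3-month library 2 or 3 or any 9-month library was left out.

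A part of the genes of neurogenesis and immature neurons was lower. Of 33 tested, 7 were lower and none was higher, 30 had a negative value and the median log2 change was -0.21. Igfbpl1, which marks neuroblasts of the dentate gyrus, had 1.79, 1.43 and 2.88 CPM at 3 months and 0.0527, 0.322 and 0.131 CPM at 9 months, with 2 of the 9-month libraries under the level of 3 counts (adjusted p = 0.000151). The microtubule regulators Stmn1 and Stmn2 fell by 0.43 and 0.25, and Dpysl5, Dpysl3, Marcksl1 and Tbr1 fell by 0.37, 0.36, 0.32 and 0.30. The calls of Dpysl5 and Tbr1 were each lost in 4 of 6 fits, and those of Dpysl3 and Stmn2 in 2. The count of lower genes was 4 without 3-month library 3, 9-month library 1 or 9-month library 2. The cell cycle list gave no call in either direction by edgeR, DESeq2 or limma-voom over 39 tested members, 2 had an unadjusted p under 0.05, and the median was -0.04.

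Lists of mature neuron genes were counted beside all tested genes, of which 6.66% were called and 2.71% were called lower. Of 41 synaptic genes, Nrgn, which binds calmodulin in dendritic spines, was lower (603.2, 600.3 and 646 CPM against 435.7, 455.1 and 439.2 CPM, log2 change -0.48) and the presynaptic scaffold Rims1 was higher (0.48). Of 36 glutamate and GABA receptor genes, Grin2c was higher (0.43), a call lost in 4 of the 6 fits that leave out 1 library (all but those without 3-month library 2 or 3). Neuropeptides and granins gave 6 lower and none higher of 30, with a median of -0.19. Cholecystokinin (Cck) went from 172.8, 159.1 and 168.4 CPM to 98.2, 94.6 and 99.9 CPM (log2 change -0.77 ± 0.17, adjusted p = 0.0262), neurotensin (Nts) fell by 0.67, Pcsk1n by 0.49, neuropeptide Y (Npy) by 0.47, Vip by 0.39 and Scg5 by 0.18.

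Counts of neuronal calls moved when libraries were left out. The neuropeptide count was between 1 and 4 when 1 library was left out, with 1 without 3-month library 3, 2 without 9-month library 2 and 3 without 9-month library 1. It was 1 without both libraries low in choroid plexus markers. The Cck call was lost when any 1 of the 6 libraries was left out, and in 7 of 16 alternatives in all. The calls of Npy and Vip were lost in 5 of 6 fits, that of Scg5 in 4 and that of Nts in 2. Among 19 tested interneuron markers 5 were lower, against 2.71% of all tested genes, and Nos1 was higher (0.44). The 5 were Pvalb (-0.47), Ndnf (-0.57) and Cck, Npy and Vip, which are also in the neuropeptide count. The Pvalb call was lost in 3 of 6 fits, and the Npy and Pvalb calls were lost with the length offset. That count of lower markers was between 1 and 3 whichever library was left out, and it was 1 without 9-month library 2 or 3. It was also 1 without both libraries low in choroid plexus markers. Of 36 immediate early genes, Nptx2 was lower (-0.38), and 8 were lower without 9-month library 3, 2 without 3-month library 2 and 0 without any 1 of the other 4. Among markers of hippocampal fields, the CA1 genes Spink8 and Wfs1 and the dentate gene Tdo2 were lower (-0.74, -0.28 and -0.53) and Glis3 was higher (0.40), of 23 tested. The calls of Wfs1, Glis3 and Tdo2 were lost in 5, 4 and 3 of 6 fits, and the lower count was 1 without 3-month library 3, 9-month library 1 or 9-month library 2.

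Malat1, an abundant nuclear non-coding RNA, fell. It was measured at 1142, 1156 and 1146 CPM at 3 months and 621, 623.6 and 628.6 CPM at 9 months, a log2 change of -0.88 ± 0.14 (adjusted p = 0.00607). The spread within each age was small, with an SD of 7.26 and 3.85 CPM, and the call was lost in 1 of 16 alternatives, the one without both libraries low in choroid plexus markers. In the Trem2 knockout libraries its log2 change with age was -0.56 (adjusted p = 0.0449). Other abundant genes that fell were the calmodulin gene Calm2 (-0.19), Rtn1 (-0.28) and Map1b (-0.18), and the kinesin Kif5a rose by 0.23. The calls of Map1b, Calm2 and Kif5a were lost in 5, 3 and 1 of 6 fits.

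A part of the genes of the mitochondrial respiratory chain was lower, by small amounts. Of 44 tested nuclear-encoded subunits, 15 were lower, none was higher, 41 had a negative value and the median log2 change was -0.24. Cox5a, of complex IV, had 74.1, 70.4 and 71.6 CPM at 3 months and 41.9, 43.3 and 45.5 CPM at 9 months (log2 change -0.73 ± 0.12, adjusted p = 0.00233), and the complex I subunits Ndufs7, Ndufb5, Ndufb8, Ndufs8, Ndufv2 and Ndufs4 had log2 changes between -0.55 and -0.47. Of these 6, the call was lost in 6 of 6 fits for Ndufb5, in 5 for Ndufs7 and Ndufs8, in 4 for Ndufb8 and in 3 for Ndufs4. Without 9-month library 2 the list had 8 lower, and without 3-month library 3 or 9-month library 1 it had 9. Of 14 tested mitochondrially encoded genes, 6 were lower, among them the ribosomal RNAs mt-Rnr1 (-0.48) and mt-Rnr2 (-0.32), mt-Nd1 (-0.30) and mt-Nd2 (-0.30), while mt-Co1 (0.02) and mt-Nd4 (-0.10) did not pass the test. Glycolytic genes gave 6 higher and none lower of 28, including Hk2 (0.67), the microglial hexokinase Hk3 (1.08), Pfkfb3 (0.31) and the glucose transporter Slc2a1 (0.27), with calls lost in 2 of 6 fits for Hk3, 3 for Pfkfb3 and 4 for Slc2a1. The count was 2 without 9-month library 1, 3 without 3-month library 1 or 9-month library 2, and 1 without both libraries low in choroid plexus markers.

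The age change varied with transcript length in the same libraries, and the median change of genes with short transcripts was negative. Tested genes whose longest annotated transcript has 600 to 1000 bases had a median log2 change of -0.19 in App knock-in and -0.15 in Trem2 knockout mice, and 11.4% of them were called lower against 0.729% called higher. In that class the median deviation from the gene's mean lay between 0.0996 and 0.125 in the 3-month libraries and between -0.12 and -0.0823 in the 9-month libraries. In the 9-month knockout libraries it was 0.0764, -0.178 and -0.0821, so 1 of them lay on the side of the 3-month libraries. Genes of up to 600 bases had a median log2 change of -0.103 in App knock-in mice. Of these 677 genes 1.77% were called lower, against 2.71% of all tested genes. Genes called lower had a median length of 1602 bases, against 3046 for tested and 3488.5 for higher genes, and 46.8% of the lower genes had transcripts of up to 1500 bases, against 17.7% of tested genes. The median length was 1298 bases for the nuclear respiratory chain, 956 for mitochondrially encoded genes and 1994 for neuropeptides.

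A fit with an offset for transcript length, chosen after these values were seen, left 1111 calls, 716 higher and 395 lower. In it the nuclear respiratory chain had 10 lower of 44 and a median of -0.12, mitochondrially encoded genes 2 lower and 1 higher with a median of -0.06, and neuropeptides 4 lower with a median of -0.15. Pan-microglial genes had 28 higher of 29 and a median of 1.30. Without both libraries low in choroid plexus markers the nuclear respiratory chain had 2 lower. The part of transcript length in these falls was not tested further.

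**Figure D4:**
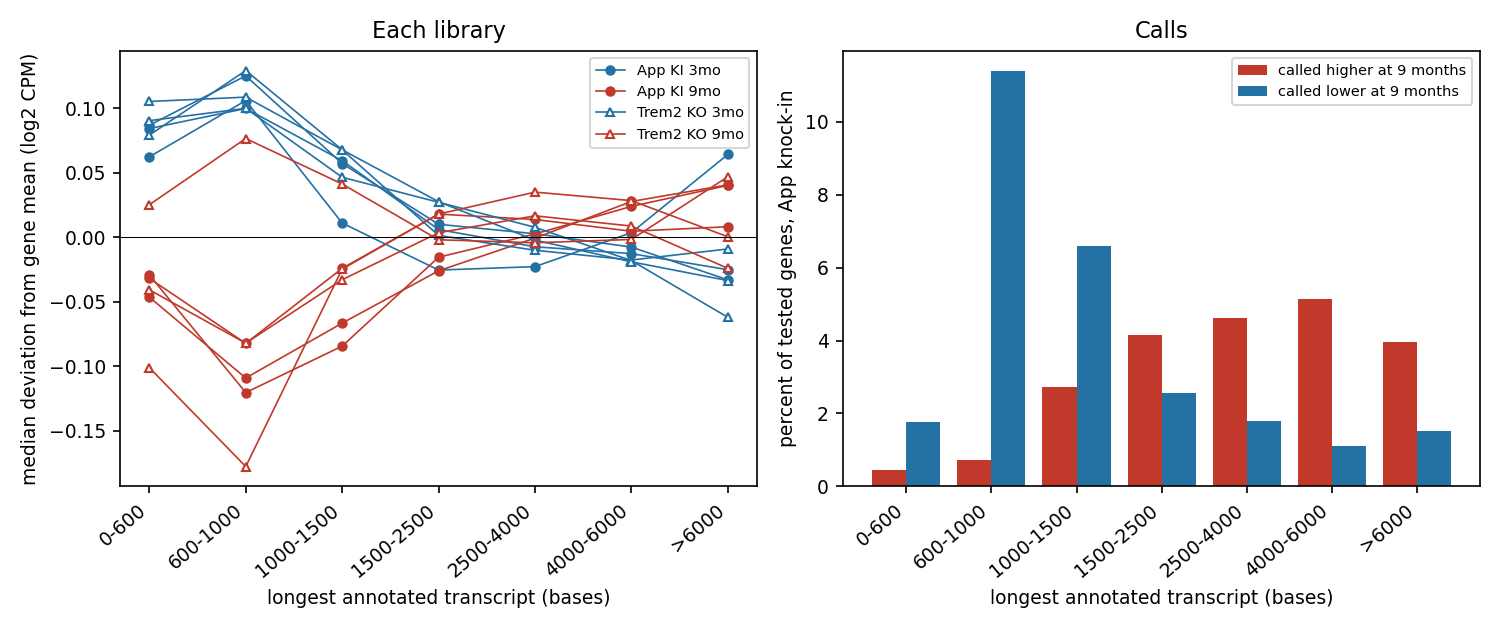
Left, median deviation of log2 CPM from each gene's mean in every library (1 line per library; filled circles App knock-in, open triangles Trem2 knockout, blue 3 months, red 9 months) by class of longest annotated transcript; right, percent of tested genes called higher or lower at 9 months in App knock-in mice in the same classes, with bars from 0. In the class of 600 to 1000 bases the 3-month App knock-in libraries all lie above 0 and the 9-month ones below, and 11.4% of genes were called lower.

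Markers of other cell types that the dissection could hold were also counted, beside the 6.66% of all tested genes that were called. Lists of few members can have no call at that share, so having none is not a result about them. Fibroblast, border macrophage, choroid plexus, erythroid, heat shock and circadian lists gave no call in either direction by edgeR, with 21, 13, 21, 7, 26 and 21 tested members, of which 0, 3, 0, 1, 1 and 3 had an unadjusted p under 0.05. DESeq2 called 1 border macrophage gene, and limma-voom called 1 border macrophage, 1 erythroid and 1 circadian gene. The summed level of choroid plexus markers ran from 104.2 to 1930 CPM at 3 months and from 82.4 to 1475 CPM at 9 months, and that of border macrophage markers from 169.6 to 223.7 and from 165.5 to 187.8 CPM. Of 25 endothelial genes, the adhesion molecule Icam1 and Slc2a1 were higher and Itm2a was lower. Of 56 collagen and matrix genes, Lox, which cross-links collagen, rose from 0.549 ± 0.197 to 2.92 ± 0.265 CPM, and Col16a1, Col27a1 and Hspg2 rose by 0.55, 0.67 and 0.60, with the Hspg2 call lost in 5 of 6 fits and that of Col27a1 in 2. Without 3-month library 3 or 9-month library 1, 2 matrix genes were higher, and the endothelial count of 2 was 1 without 3-month library 3, 9-month library 1 or 9-month library 2.

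Lymphocyte genes were mostly too scarce to test. Of 28 markers of T, NK and B cells, 8 passed the filter and Cd3d and Gzma were at 0 in all 6 libraries. Ighm, the immunoglobulin M heavy chain, was called higher, at 8.81, 6.17 and 9.66 CPM against 41.4, 36.9 and 22.6 CPM (log2 change 2.03 ± 0.34, adjusted p = 0.00891), and did not overlap between the ages. It was not called without both libraries low in choroid plexus markers. Ms4a1, which encodes the B cell antigen CD20, had 3 counts over the 6 libraries. The unfolded protein response list had 1 higher and 1 lower of 27, Edem1 (0.46) and Ddit3 (-0.39), of which Ddit3 was not called without 3-month library 2, 9-month library 1 or 9-month library 2, and 4 genes of the list were lower without 9-month library 3.

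The age change differed with Trem2 for a small set of genes. In the knockout, 1667 genes changed with age (8.7% of those tested). The knockout shared 439 of the higher genes with mice that have Trem2, which is 58.0% of the App knock-in list and 40.3% of the knockout list, and 232 of the lower genes, which is 44.7% and 40.1%. The test of the difference between the age changes called 51 genes (0.266% of those tested). In 40 of them the change was larger or more positive with Trem2 and in 11 it was below that in the knockout. Of the 40, which include Trem2, the gene knocked out, 21 are in a microglial list, against 107 of the 19152 tested genes. These lists were chosen with earlier results of these data known. The number called was 32 to 57 when 1 App knock-in library was left out, lowest without 9-month library 3. Of the 51 calls, 25 were lost in at least 1 of 6 fits. No knockout library was left out in any fit. The mean log2 CPM of choroid plexus and ependyma markers in the 9-month knockout libraries was 5.18, 5.10 and 1.59. Of the 1276 genes called with age, 41 (3.21%) were also called in the test of the difference, in which 1156 tested genes had an unadjusted p under 0.05.

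Among those 40, the rise with age was present in both genotypes for most microglial genes and was larger with Trem2. Cst7 rose by 6.55 with Trem2 and by 2.79 without it, reaching 43.8 ± 2.01 and 2.65 ± 0.55 CPM at 9 months, a difference in log2 change of 3.77 ± 0.67 (adjusted p = 0.0403) whose call was lost in 4 of 6 fits, without 3-month library 2 or any 9-month library. Ccl6 rose by 3.58 and 1.72, Gpnmb by 2.46 and 0.97, Cd68 by 2.17 and 0.97, and Ctss by 2.07 and 1.15. For Samsn1, an adaptor of leukocytes, Klhl6 and Cx3cr1 the knockout values of 0.51, 0.42 and 0.14 did not pass the age test, against 2.27, 1.79 and 0.71 with Trem2, and the Klhl6 difference was lost in 5 of 6 fits. Lpl had log2 changes of 0.54 with Trem2 and -0.24 without it, with 41.7 ± 4.79 and 60.4 ± 1.32 CPM at the ages with Trem2 and 51.8 ± 3.55 and 43.8 ± 3.51 CPM without it.

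Some genes of the response were not called as different. Clec7a reached 21.2 ± 1.19 CPM with Trem2 and 2.79 ± 1.19 CPM without it at 9 months, and Itgax 14.4 ± 0.961 and 0.715 ± 0.268 CPM, but both had few reads at 3 months and the difference of their log2 changes did not pass the test. C4b rose by 2.87 and 3.05 and Apoe by 0.36 and 0.30, and neither difference passed the test. Gfap rose by 1.98 and 1.63, a difference of 0.35 ± 0.07 that was called (adjusted p = 0.0409) and was lost in 4 of 6 fits, without 3-month library 2 or 3 or 9-month library 1 or 2. None of the class I, class II or interferon genes was called in this test by edgeR or limma-voom, and 4, 4 and 3 of them had an unadjusted p under 0.05. DESeq2 called 2 class I genes. The 11 genes below the knockout change include Colec12 and, named after their values were seen, Gpr182, Kdr, Ecm1, Fbln1, Osr1, Lef1 and Klf2. Of the lists, 1 of 25 endothelial genes (Kdr) and none of 21 fibroblast genes was called in this test by edgeR, although 14 of the 21 had an unadjusted p under 0.05, and of those fibroblast genes DESeq2 called 3 and limma-voom none. In the knockout 11 of the 21 fibroblast genes were called higher with age.

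**Figure D5:**
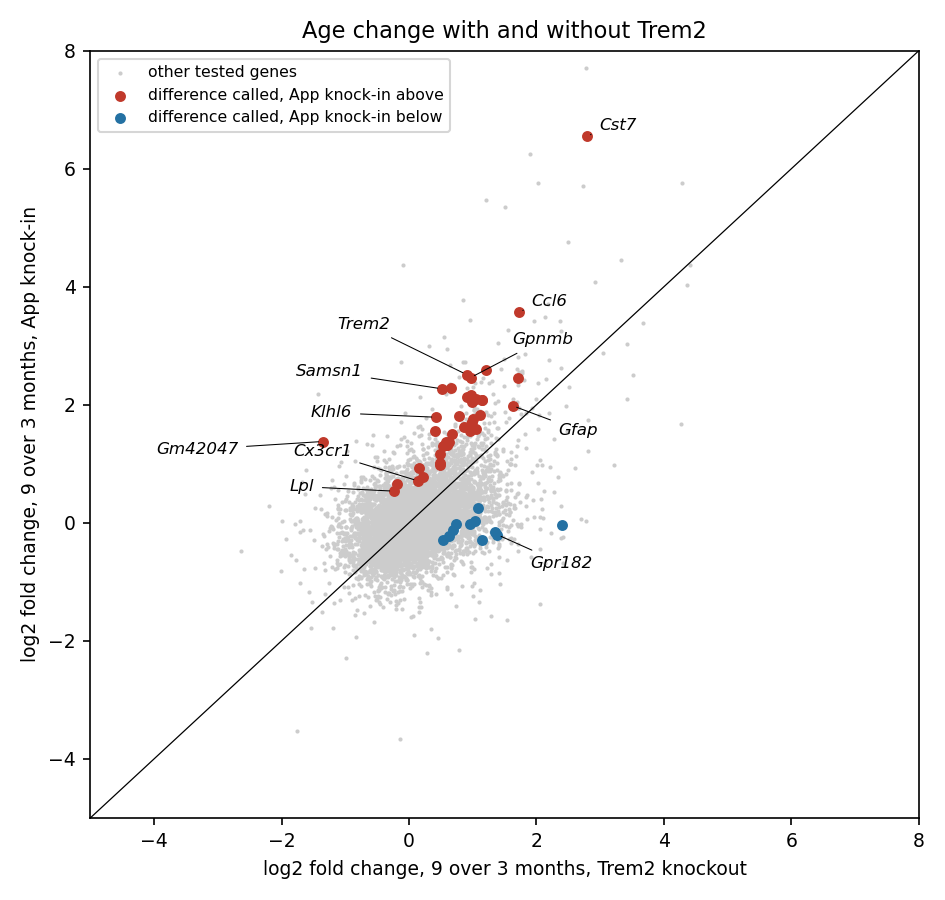
Log2 fold change at 9 over 3 months in App knock-in mice with Trem2 (vertical axis) against the same in Trem2 knockout mice (horizontal axis) for all 19152 tested genes, with the line of equal change; coloured points are the 51 genes whose age changes differed. The 40 red points, among them Cst7 and Ccl6, lie above the line, and the 11 blue points lie below it.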

How the data were processed

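RNA was measured by bulk sequencing of hippocampus from 12 male mice. RNA was purified on columns and libraries were made, per the labels' protocols, with the SMART-Seq mRNA LP kit. Raw read counts per gene were deposited by the authors without normalisation, and per the submitters' processing notes STAR 2.7.10a, featureCounts 2.0.3, R 4.2.0, DESeq2 1.36.0 and the build GRCm39 were used. The annotation release, whether strand was used and how reads matching more than 1 gene were handled are not given in the sources used. Counts of genes with near-identical copies (C4b, Amd2, Fabp5 and the H2 family) and of overlapping genes are therefore uncertain. Total counts ran from 14627892 to 24594655 over the 12 libraries.

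Symbols and transcript lengths came from GENCODE M21, an annotation on another build, which named 52073 of 56980 identifiers. The 4907 others held at most 0.252% of a library's reads. Where identifiers shared a symbol, the one with most reads kept it. CPM uses TMM-scaled library sizes.

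Genes were kept by filterByExpr (minimum count 10, minimum total 15) and tested with edgeR 4.0.16 (R 4.3.3, quasi-likelihood F-test, robust, 1 term per group over 12 libraries, 8 residual degrees of freedom). Calls are at a Benjamini-Hochberg adjusted p under 0.05 over all 19152 genes. SE values follow from the F statistic. The labels give separate mice and no pairing. Each p-value weighs a difference against the spread between libraries within groups, estimated over all 12 libraries. Alternatives were RLE scaling, library totals only, DESeq2 1.42.0, limma-voom 3.58.1 with sample weights, other filters and a choroid plexus score as covariate. Others were leaving out each App knock-in library and the 6 App knock-in libraries alone. No knockout library was left out by itself. A transcript length offset and leaving out both libraries low in choroid plexus markers were chosen after seeing the data. The test was tried on simulated data first.

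The 51 gene lists, with 1193 tested members, are described by counts and medians without a set test. Members, lists and rules were chosen with earlier results of these data known. Named genes are App and Trem2, the 15 largest positive and 15 largest negative log2 changes among called genes (with a mean log2 CPM from 1 upward, a symbol that is not an identifier and App knock-in ages that do not overlap), the 10 most abundant called genes, the 10 with the largest called difference between genotypes under the same filters as the 15, and for each list its called members and up to 4 abundant members not called. The filter on overlap left out larger differences below the knockout change, such as Gpr182 (-1.59) and Osr1 (-1.42). Results of some genes that this rule names are not reported here. Others are said to be named after their values were seen, except genes given as not tested or at 0. Promoter windows come from RefSeq (GRCm38.p6).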

Additional observations from a re-analysis of the deposited data

Results flagged for a closer look

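Of the genes selected by the naming rule and reported here, 32 had an age change that differed between mice with and without Trem2. The test was that of the difference in the edgeR fit, with adjusted p values of at most 0.0409. Over all 19152 tested genes it called 51 (0.266%). The rule names 516 genes, 10 of them because this same test called them, so the number 32 is in part set by the rule. The rule also favours genes called with age in App knock-in mice, which shapes how many lie above the knockout change. Not counted are genes named only after their values were seen, such as Gpr182, Kdr, Ecm1, Fbln1, Osr1, Lef1 and Klf2, which lay below the knockout change. In 21 of the 32 the call held whichever App knock-in library was left out. It was lost in 5 of 6 such fits for Klhl6 and Colec12, 4 for Cst7, Gfap, Selplg and Tyrobp, 2 for C1qa, C1qb and Gusb and 1 for Itgb2 and Lair1. Values below are the log2 age change with Trem2 minus that without it.

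Receptor and signalling genes of the TREM2 pathway were among them, with 1.61 for Trem2, 1.03 for its adaptor Tyrobp and 0.79 for the phosphatase Inpp5d. Trem2 is the gene knocked out, so its own difference is tied to the design and is not a result about the response. Of the plaque-associated genes, the difference was 3.77 for Cst7, 1.85 for Ccl6, 1.49 for Gpnmb, 1.20 for Cd68, 0.70 for Ctsz and 0.78 for Lpl, and it was -1.0 for Colec12, which rose by 1.03 without Trem2 and had a value of 0.03 with it.

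Among pan-microglial and homeostatic genes it was 1.22 for Ptprc, 0.92 for Ctss, 1.02 for Ly86, 0.72 for Laptm5, 0.77 for Cd53, 0.69 for Csf1r, 0.53 for Selplg and 0.57 for Cx3cr1. The C1q chains differed by 0.60 for C1qa, 0.55 for C1qb and 0.75 for C1qc.

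Of the immune receptors and adaptors, it was 1.62 for Cd14, 0.93 for Itgb2, 0.77 for Fcgr3, 0.74 for Vsir, 0.73 for Lair1, 1.76 for Samsn1 and 1.37 for Klhl6. The lysosomal and metal transport genes differed by 1.37 for Slc11a1, 0.72 for Gusb and 0.50 for Grn, and the astrocyte gene Gfap by 0.35.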

How the results depend on the processing

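Of 332 named genes called with age, 199 kept their call in all 16 alternatives and 133 lost it in at least 1, and no named gene changed direction past the threshold. Leaving out each App knock-in library gave 788 to 1079 genes changed with age, 522 to 718 higher and 245 to 411 lower. Without both libraries low in choroid plexus markers these counts were 638, 485 and 153. The number of lower genes was 289 without 3-month library 3, 267 without 9-month library 1 and 245 without 9-month library 2. Under the other scalings, tools and filters the total ran from 1111 with the length offset to 1657 with no filter. The number of genes whose age change differed with Trem2 was 32 to 57 when 1 App knock-in library was left out. Of these, 27 to 40 were above and 3 to 17 below the knockout change. The number was 32 without 9-month library 3, and its dependence on single knockout libraries was not tested. It was 99 with DESeq2 (41 below), 187 with no filter (74 above and 113 below) and 80 with the choroid plexus covariate (32 below), and the cause was not tested. No paired analysis was possible because the labels number no replicates. Without a filter more genes are tested and without a library fewer samples. Genes near 3 counts per library (0.122 to 0.195 CPM) are limited by depth.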

Other observations

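Several of the genes with the lowest log2 changes among well-measured ones were not described above. Smim18, which encodes a small membrane protein, had 3.18, 3.82 and 4.1 CPM at 3 months and 1.69, 1.61 and 1.51 CPM at 9 months (log2 change -1.20 ± 0.21). The histone gene Hist3h2ba (-0.81), Bex4 (-0.76), the mitochondrial import gene Timm10 (-0.80), the growth factor-binding gene Igfbp6 (-0.86), the nucleotide hydrolase Dctpp1 (-0.75) and Flywch2 (-0.85) followed, and all 7 have transcripts of up to 1500 bases. The calls of Igfbp6 and Flywch2 were lost when any 1 of the 6 libraries was left out, and those of Timm10 and Dctpp1 in 4 and 3 of these 6 fits. Longer ones were Btbd16 (-1.06), the tachykinin receptor Tacr3 (-0.76), the BMP antagonist Grem1 (-0.80) and Amd2 (-0.75), whose counts are uncertain since Amd1 is nearly identical, with calls lost in 4 of 6 fits for Btbd16, 3 for Grem1 and 1 for Tacr3 and for Amd2. Of all 1276 genes called with age, 963 are in none of the 51 lists.

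Lysozyme (Lyz2) went from 14.8, 11.8 and 11.2 CPM to 88.8, 80.7 and 88.1 CPM. Of 20 tested iron genes, 3 were higher and none was lower, with a median log2 change of 0.03. The metal transporter Slc11a1 rose by 2.58 on the log2 scale, the ferric reductase Cybrd1 by 0.72 and haem oxygenase Hmox1 by 0.55, the last with a call lost in 4 of 6 fits, while the ferritin gene Fth1 had a log2 change of -0.20 and did not pass the test. Gm42047 was the 1 gene called in opposite directions in the genotypes, with log2 changes of 1.38 with Trem2 and -1.36 without it, and was named after its values were seen.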
